A study of Rattus norvegicus with 25 samples.

Results

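Chemokines are small secreted proteins that guide leukocytes through tissue by way of G protein-coupled receptors on the cell surface. Homeostatic chemokines hold lymphocytes and dendritic cells in lymphoid tissue, inflammatory chemokines call neutrophils and monocytes to infected sites, and atypical receptors bind the ligands without G protein signaling and take them out of the tissue. In gingiva, the mucosa around the teeth, this system steers the leukocytes that meet the bacteria of the dental plaque. Its genes were taken here by symbol, as those that start with Ccl, Cxcl, Ccr, Cxcr or Ackr and a digit, together with Cx3cl1, Cx3cr1, Xcl1, Xcr1 and Ccrl2. Of the 54 symbols found, 53 had reads in at least 1 library, among 24507 genes with reads in all. Ccl26 had 0 reads in 25 libraries, and a count of 0 among 1564138025 reads allows up to 0.00192 CPM, a read count scaled to the total of the library. A filter of 2 CPM in at least 1 library left 42 members among 16092 genes tested.

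The tissue came from 25 wild-type Sprague-Dawley rats in 5 groups of 5, with 1 library per rat. Cur/ZNP gel, ZNP gel and Cur gel rats had experimental periodontitis and received a hydrogel with curcumin and zinc oxide nanoparticles, with the nanoparticles or with curcumin. EP rats had experimental periodontitis with no drug named, and whether they received a hydrogel without drug is not stated. Sham rats are labelled as controls given hydrogel. Periodontitis was induced with a silk ligature on the maxillary first molars of both sides, onto which Porphyromonas gingivalis was applied 3 days later. Each gel was injected into the periodontal pocket in a volume of 200 μL, weekly for 4 weeks, and the combined gel held each drug at a lower concentration than the single gels. The labels give an age of 6 weeks, and the methods give an older age and male rats. The values are normalized counts, which are reads divided by a size factor of their library. Since gene length was not corrected for, levels are compared between groups and not between genes.

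Libraries held 50690789 to 81791804 reads, of which the members took 0.0507% to 0.185%. Markers of gingival epithelium and connective tissue were read in every library. Sham 4, EP 3 and EP 4 stood apart through secreted proteins of nasal glands, whose summed normalized counts were 24947300, 13645000 and 18966800, against at most 55299 in any other library. A second set stood apart within the sham group. The 11 B cell markers summed to 69490, 43663 and 31002 in Sham 1, Sham 4 and Sham 5, but to 2890 and 2489 in Sham 2 and Sham 3 and to at most 16563 in any EP or gel library. Bulk tissue was measured, so that fewer cells of a type and less RNA per cell cannot be told apart. The labels do not say whether rats shared cages or days, and p-values measure the spread between these rats.

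Between EP and sham gingiva, 4 of the 42 members passed the test and all 4 were lower in EP. They were Cxcl14, an epithelial chemokine made at rest by skin and oral mucosa, Ccl22, a product of activated dendritic cells and macrophages, Ccl19, which draws cells with Ccr7 into lymphoid tissue, and Ccl7, a monocyte attractant. A gene passed at a Benjamini-Hochberg adjusted p under 0.05 over all genes tested with limma. Among all genes 37.6% passed, 18.8% as higher and 18.8% as lower, so the share of members that passed was below the background. At an unadjusted p under 0.05 there were 5 members and 47.2% of all genes. The median log2 fold change was 0.03 over the members and 0.01 over all genes. No ligand or receptor had non-overlapping groups in this comparison, whereas 16.5% of all genes had. In edgeR the same 4 members passed (37.1% of all genes), DESeq2 added Cxcl2 and Cxcr4 (42.5%), and 0 passed when EP and sham alone entered the limma fit (21.0%). In the forest plot of this comparison, Cxcl17, Ccl28, Cxcl3, Ccl3 and Ccl4 have the widest intervals.

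**Figure D1:**
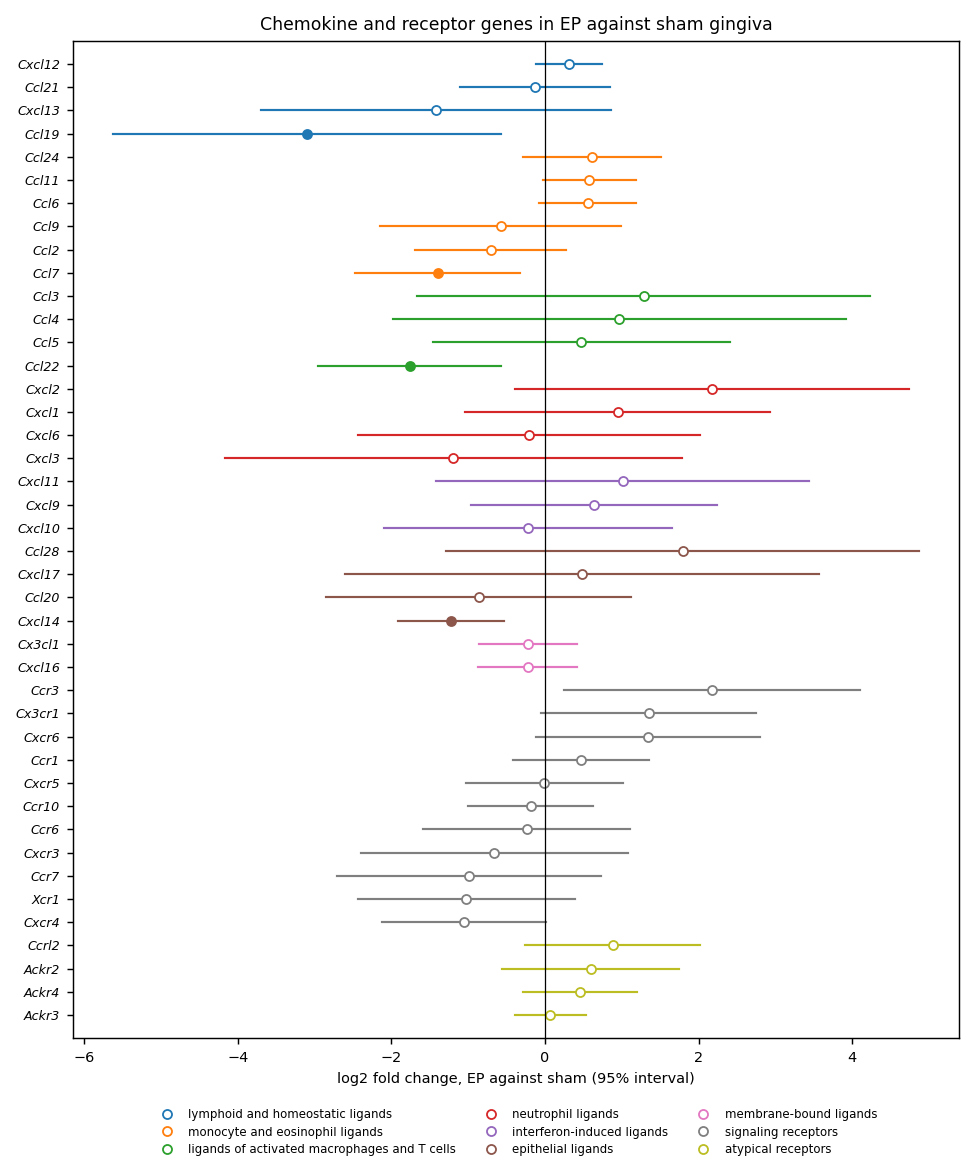
Log2 fold changes of the 42 tested members in EP against sham gingiva (x axis) with 95% intervals, grouped by role (color). Filled points passed the adjusted test, which were Ccl19, Ccl7, Ccl22 and Cxcl14, and all 4 lie left of 0.

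Without the sham libraries rich in B cell markers (Sham 1, Sham 4 and Sham 5), 7 members passed between EP and sham, 6 of them higher, and 1 of the 7 (Cxcl14) was also among the 4 above. Among all genes 27.8% passed in that fit, so that the members' share (16.7%) was again below the background. This setting was chosen after the values were seen, and it leaves 2 sham rats. The 6 that passed as higher were Cxcl9, Ccl6, Ccr3, Cx3cr1, Cxcr5 and Cxcr6, with log2 fold changes of 0.91 in Ccl6 to 4.70 in Ccr3. Without Sham 4, EP 3 and EP 4, 1 member (Cxcl14) passed, and 28.0% of all genes. The part of B cells or gland tissue in these differences was not tested.

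The lymphoid ligands are Ccl19 and Ccl21, which bind Ccr7 on T cells and dendritic cells, Cxcl13, which binds Cxcr5 on B cells, and Cxcl12, which binds Cxcr4 on most leukocytes. Of the 4, Ccl19 fell in EP and the other 3 did not pass. Ccl19 (chr5:58181026-58183017, minus strand, Rnor_6.0) had 64.4, 147, 199.7, 2185 and 103 normalized counts in Cur/ZNP gel 1 to 5, 351, 98.6, 2064, 773 and 164 in ZNP gel and 79.1, 37.7, 513, 53.4 and 789.7 in Cur gel. It had 51.5, 79.2, 337, 240.1 and 1144 in EP 1 to EP 5, against 13438, 567, 156, 5417 and 2768 in Sham 1 to Sham 5. Sham 1, Sham 4 and Sham 5 were above every library of the other groups, and Sham 2 and Sham 3 lay within the range of EP. The log2 fold change in EP was -3.10 (SE 1.22, adjusted p = 0.0496), and it passed in 3 of the 10 fits that left out a sham or EP library. It did not pass without Sham 1, 4 or 5 or without EP 1, 2, 3 or 4, and the adjusted p was 0.0179 to 0.152 over the 10 fits. The call also ended with no filter on low values (0.0677) and with the filterByExpr filter of edgeR (0.0539).

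Cxcl13 (chr14:15253125-15258207, minus strand) was high in the same libraries and passed in no comparison by limma. It had 673, 9714, 1119.8, 6022 and 320.4 normalized counts in Cur/ZNP gel 1 to 5, 16565, 3772, 3211, 2404 and 3598 in ZNP gel and 5861, 517, 4193, 6027 and 1564 in Cur gel. EP 1 to EP 5 stood at 400.0, 2204, 7798, 6394 and 4349.6, against 34585, 1199, 1378, 32030.2 and 14318 in Sham 1 to Sham 5 (log2 fold change -1.42, SE 1.10, adjusted p = 0.318). Sham 1 and Sham 4 were above all other libraries, ZNP gel 1 came next and Sham 5 after it. Without Sham 1, Sham 4 and Sham 5 the log2 fold change was 1.15, the opposite direction. That setting was chosen after the values were seen and leaves 2 sham rats. It removes the 3 highest sham values of Cxcl13, so that the turn cannot be told apart from the choice of rats. The markers of T and NK cells summed to 2046 to 8167 in EP, against 1912 to 16860 in sham, with the 3 highest sham values in the same 3 libraries. Those of high endothelial venules, the vessels that let lymphocytes into lymphoid tissue, summed to 5993 to 24164 in EP, against 1153 to 59483 in sham. Of the B cell markers, 11 of 11 had a negative log2 fold change in EP, and 0 passed by limma (4 at an unadjusted p under 0.05). Against sham, 9 of the 11 passed as lower with Cur/ZNP gel (81.8%, against 39.7% of all genes). With ZNP gel 0 passed, and with Cur gel 1.

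Ccl21 and Cxcl12 were read in every library and spread less. Ccl21 had 9754, 4318, 8031, 11220.3 and 7437 normalized counts in Cur/ZNP gel 1 to 5, 5032, 3356, 12752, 5263 and 4465 in ZNP gel and 5185, 4748, 4529, 3115 and 5578 in Cur gel. It had 8202, 5256, 4611, 4198 and 5938 in EP 1 to EP 5, against 17646, 4778, 1292, 9939.6 and 7051 in Sham 1 to Sham 5, so that the sham rats held both the highest and the lowest value of all libraries. Its log2 fold change in EP was -0.12 (adjusted p = 0.853), and it turned positive without Sham 1 (0.27) or without Sham 4 (0.06). Mouse has near-identical copies of Ccl21, and how reads of such copies were counted here is not given in the sources used here. Cxcl12 had 9869, 7210.1, 8237, 10574 and 7986 normalized counts in Cur/ZNP gel 1 to 5, 6641, 5777, 8850.5, 7741 and 10950.5 in ZNP gel and 6246, 7066, 6499.8, 5218 and 8842 in Cur gel. For EP 1 to EP 5 the values were 10909, 7633, 8147, 6927 and 6127, against 5563, 9582, 4218, 6099.9 and 7127 in Sham 1 to Sham 5 (log2 fold change 0.31, SE 0.20, adjusted p = 0.237). Its groups overlapped throughout. Ccl25, the thymic and intestinal ligand, had 12 reads in 3 libraries and was not tested.

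The receptors of these ligands are Ccr7, Cxcr5 and Cxcr4. Ccr7 had 27.0, 110.2, 60.1, 349.7 and 38.7 normalized counts in Cur/ZNP gel 1 to 5, 244, 86.5, 411, 225 and 68.4 in ZNP gel and 157, 31.4, 173, 102 and 187 in Cur gel. It had 61.2, 63.4, 158, 190.3 and 329 in EP 1 to EP 5, against 1157, 87.1, 42.0, 488 and 579 in Sham 1 to Sham 5 (adjusted p = 0.361). Sham 1, Sham 5 and Sham 4 were the highest libraries, and Sham 3 lay below every EP library. Cxcr5 had 266, 196, 217, 392 and 176 in Cur/ZNP gel 1 to 5, 256, 154, 318, 373 and 235 in ZNP gel and 282, 239, 439, 243 and 310.3 in Cur gel. Rats EP 1 to EP 5 had 184, 154, 234, 331 and 447, against 695, 158, 51.1, 297 and 598 in Sham 1 to Sham 5. Cxcr5 had a log2 fold change in EP of -0.01 (SE 0.50, adjusted p = 0.993).

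Cxcr4 (chr13:45314933-45318878, minus strand) was lower with Cur gel and with Cur/ZNP gel than in sham. It had 412, 724, 361, 1494 and 489 normalized counts in Cur/ZNP gel 1 to 5, 1174, 444, 1161, 907 and 599 in ZNP gel and 729.7, 275, 917, 359 and 876 in Cur gel. It had 496, 474, 1061, 1059.9 and 1219 in EP 1 to EP 5, against 3829, 665, 711, 3598 and 1924 in Sham 1 to Sham 5. Again Sham 1, Sham 4 and Sham 5 were above every other library, and Sham 2 and Sham 3 were within the ranges of the other groups. The log2 fold change was -1.46 in Cur/ZNP gel (adjusted p = 0.0281) and -1.55 in Cur gel (adjusted p = 0.0217). It was -1.05 in EP (adjusted p = 0.109). It passed in EP without Sham 2 (-1.38, adjusted p = 0.0355). With Cur/ZNP gel the call ended without Sham 1, Sham 4 or Cur/ZNP gel 1, 3 or 5 (adjusted p up to 0.0938), and with Cur gel without Sham 1, Sham 4 or Cur gel 2 or 4 (up to 0.0760).

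**Figure D2:**
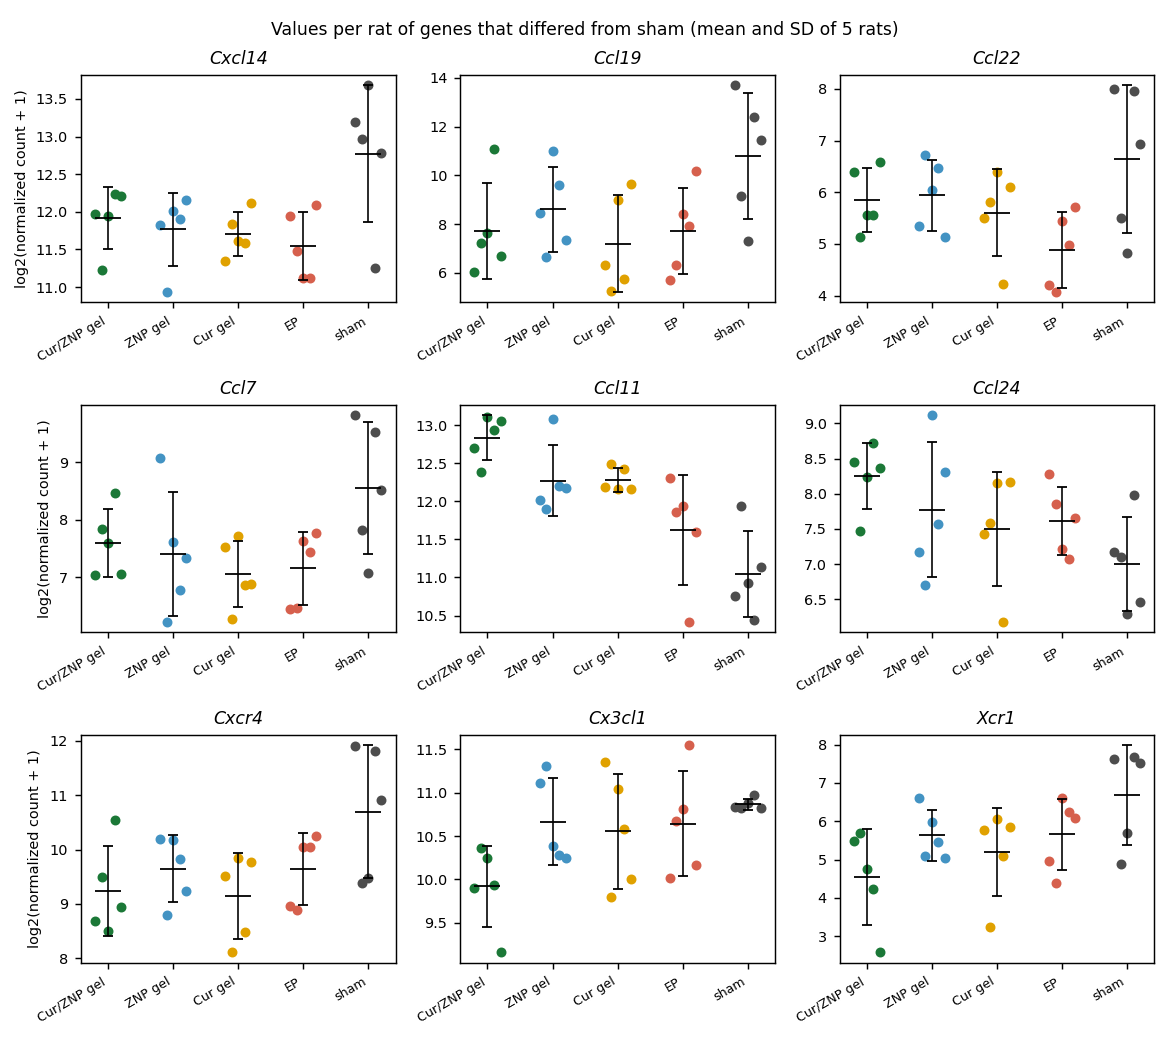
Values of 9 members in each rat, as log2(normalized count + 1) on the y axis, by group, with the mean and SD of 5 rats. Ccl19, Ccl22, Ccl7 and Cxcr4 have sham rats both far above and within the other groups, whereas Ccl11 with Cur/ZNP gel lies above every EP and sham rat.

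Ligands of monocytes and eosinophils moved in both directions. Ccl11, or eotaxin, draws eosinophils by way of Ccr3 and is made mainly by fibroblasts and epithelium. Ccl11 (chr10:69434941-69439575, plus strand) had 6643, 5345, 8783, 7823 and 8518 normalized counts in Cur/ZNP gel 1 to 5, 4139, 3810.4, 8620.1, 4695 and 4607 in ZNP gel and 4645, 5759, 4564, 5469.6 and 4597 in Cur gel. It had 5044, 3719, 3929, 1363 and 3098 in EP 1 to EP 5, against 1736, 3936, 1947, 1394 and 2260.1 in Sham 1 to Sham 5. Every Cur/ZNP gel and Cur gel rat was above every sham rat, and with ZNP gel only ZNP gel 2 fell below the highest sham rat, Sham 2. Against sham, Ccl11 rose in all 3 gel groups, with log2 fold changes of 1.79 in Cur/ZNP gel (adjusted p = 0.000184), 1.23 in ZNP gel (adjusted p = 0.00425) and 1.24 in Cur gel (adjusted p = 0.00264). The SE was 0.29 in each comparison, and each call held in all 10 fits that left out a library of its groups. In EP the log2 fold change was 0.58 (adjusted p = 0.124), and it passed without Sham 2 (0.80, adjusted p = 0.0272) or without EP 4 (0.88, adjusted p = 0.0108). Without Sham 1, Sham 4 and Sham 5 together, the rise passed with Cur/ZNP gel only (log2 fold change 1.40). Sums of 5 fibroblast markers were 287630 to 537326 for Cur/ZNP gel rats, 155441 to 404813 for ZNP gel rats and 167143 to 237484 for Cur gel rats, against 120494 to 321499 in sham, and their part in the result was not tested.

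Ccl24, a second eosinophil ligand that macrophages make, rose with Cur/ZNP gel against sham. It had 348, 176, 299.6, 422 and 330.3 normalized counts in Cur/ZNP gel 1 to 5, 143, 103, 555, 188 and 316 in ZNP gel and 170.4, 191, 283, 71.2 and 285 in Cur gel. It had 309, 230.3, 148, 133 and 201 in EP 1 to EP 5, against 143, 136, 77.4, 252 and 87.5 in Sham 1 to Sham 5. The groups overlapped through Cur/ZNP gel 2 and Sham 4, and the log2 fold change was 1.25 (SE 0.43, adjusted p = 0.0267), which did not pass without Sham 3 or 5 or without Cur/ZNP gel 1, 4 or 5 (adjusted p up to 0.0729). Ccr3, the receptor of both ligands on eosinophils, had 72.2, 55.1, 82.3, 70.7 and 29.8 in Cur/ZNP gel 1 to 5, 118, 47.6, 59.2, 42.7 and 96.6 in ZNP gel and 138, 39.8, 67.3, 40.1 and 5.54 in Cur gel. EP 1 to EP 5 stood at 64.1, 19.0, 93.0, 104 and 39.2, against 26.4, 3.56, 0, 126 and 16.7 in Sham 1 to Sham 5. Sham 2 and Sham 3 were at or near 0 and Sham 4 was among the highest libraries. Ccr3 rose with ZNP gel against sham (log2 fold change 2.48, SE 0.93, adjusted p = 0.0457), in 3 of 10 fits that left out a library, and the call ended without Sham 2, Sham 3 or any ZNP gel rat (adjusted p up to 0.161). Neither edgeR (log2 fold change 1.13, adjusted p = 0.320) nor DESeq2 (1.13, adjusted p = 0.268) called it, and it also ended with no filter (0.0599), with a pseudocount of 10 (0.0670) and with ZNP gel and sham alone in the fit (0.152). In EP its log2 fold change was 2.17 (adjusted p = 0.0699).

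Ccl7, which binds Ccr1, Ccr2 and Ccr3, fell in EP. Ccl7 (chr10:69423086-69424979, plus strand) had 130.5, 227, 192, 352 and 132 normalized counts in Cur/ZNP gel 1 to 5, 534, 73.5, 195, 109 and 161 in ZNP gel and 183, 76.4, 209, 115 and 117 in Cur gel. It had 86.4, 87.7, 197, 173 and 216 in EP 1 to EP 5, against 901, 225, 134, 734 and 366 in Sham 1 to Sham 5. Sham 1 and Sham 4 were above all other libraries, while Sham 3 lay within the EP range and Sham 2 just above it. Ccl7 had a log2 fold change of -1.40 in EP (SE 0.52, adjusted p = 0.0370) and -1.50 in Cur gel (adjusted p = 0.0265), and neither passed without Sham 1 or without Sham 4. In EP the call also ended without Sham 5, EP 1 or EP 2 (adjusted p up to 0.121) and with no filter on low values (0.0512), and with Cur gel without Cur gel 2 (up to 0.0908). Its neighbor on chromosome 10, Ccl2, the main monocyte attractant, ranged from 107 to 420.0 in EP, against 129.8 to 680.2 in sham (adjusted p = 0.248).

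Ccl6, a rodent ligand of Ccr1, had 1587, 1696, 1068, 1012 and 1785 normalized counts in Cur/ZNP gel 1 to 5, 1725, 1067, 1626, 1085 and 1542 in ZNP gel and 1366, 1033, 1273, 708 and 882 in Cur gel. For EP 1 to EP 5 the values were 1191, 1166, 1969, 1758 and 968, against 627, 789, 666, 2411 and 859 in Sham 1 to Sham 5. Sham 4 had the highest normalized count of all libraries and the other sham rats had the lowest save for Cur gel 4. Relative to all reads Sham 4 was not the highest. It had 1186 reads of Ccl6 among 61490425, and ZNP gel 3 had 1976 among 59749001. Ccl6 had a log2 fold change of 0.55 in EP (adjusted p = 0.153). Without Sham 4, EP 3 and EP 4, Ccl6 passed against sham with ZNP gel (0.92) and with Cur/ZNP gel (0.93). Ccl9, also a rodent ligand of Ccr1, lay between 9.80 and 142 in 24 libraries and at 500.1 in Cur/ZNP gel 1. Ccl12 had 517 reads in 20 libraries and fell below the filter.

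Cxcl14 had the smallest adjusted p of the members between EP and sham. Cxcl14 (chr17:9109731-9117750, plus strand) had 4029, 2399, 3950.1, 4842 and 4731 normalized counts in Cur/ZNP gel 1 to 5, 3632, 1957, 4129, 3827 and 4549.5 in ZNP gel and 2608, 3657, 3129, 3084 and 4441 in Cur gel. It had 3957, 2853, 2221, 2222 and 4341 in EP 1 to EP 5, against 9352, 7979.6, 13124, 2445 and 7032 in Sham 1 to Sham 5. Apart from Sham 4, every sham rat was above every rat of the other groups. Cxcl14 averaged 3119 ± 984 in EP and 7987 ± 3869 in sham (SD, n = 5 rats each), a log2 fold change of -1.22 (SE 0.33, adjusted p = 0.00700) that held in all 10 fits that left out a library but not with EP and sham alone in the fit (adjusted p = 0.0572). It was also lower than sham with Cur/ZNP gel (-0.85, adjusted p = 0.0465), ZNP gel (-1.01, adjusted p = 0.0255) and Cur gel (-1.07, adjusted p = 0.0154). With Cur/ZNP gel the call ended in 8 of 10 fits, those without Sham 1, 2, 3 or 5 or without Cur/ZNP gel 1, 2, 3 or 5 (adjusted p up to 0.144), and also with no filter (0.0632) or the filterByExpr filter (0.0501). It ended without Sham 1, Sham 3 or ZNP gel 2 with ZNP gel (up to 0.0888) and without Sham 3 with Cur gel (0.0569). Beside it, the basal keratinocyte markers summed to 104918 to 318338 in EP, against 651107 to 1614420 in 4 sham libraries and 90830 in Sham 4, the library in which Cxcl14 was also low. Their part in the result was not tested.

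The other epithelial ligands are Ccl20, which draws Ccr6-bearing cells to mucosa, Ccl28, a ligand of Ccr10 in mucosal glands, and Cxcl17, a mucosal ligand. Ccl20 had 15.7, 152, 89.7, 97.6 and 12.9 normalized counts in Cur/ZNP gel 1 to 5, 437, 1030.0, 49.4, 184 and 264 in ZNP gel and 787, 44.0, 329.6, 167 and 53.6 in Cur gel. It had 31.1, 179, 523, 198 and 438 in EP 1 to EP 5, against 878, 168, 109, 854 and 374 in Sham 1 to Sham 5. Ccl20 fell with Cur/ZNP gel against sham (log2 fold change -2.80, SE 0.96, adjusted p = 0.0243), with Cur/ZNP gel 1 and 5 below every other library and Cur/ZNP gel 2 above the lowest sham rat. The call ended without Sham 1, Sham 4 or Cur/ZNP gel 1 or 5 (adjusted p up to 0.0757).

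Ccl28 and Cxcl17 were highest in the libraries with nasal gland proteins. Ccl28 had 214, 824, 3010.3, 3346 and 389 normalized counts in EP 1 to EP 5, against 100.2, 345, 28.8, 7074 and 189 in Sham 1 to Sham 5. Cxcl17 had 20.9, 1593, 217, 160.0 and 36.7 in Cur/ZNP gel 1 to 5, 3155, 1248, 123, 145 and 777 in ZNP gel and 1025, 129.8, 495, 522 and 175 in Cur gel. In EP 1 to EP 5 Cxcl17 had 58.2, 692, 4455, 6425 and 115, against 349, 94.2, 82.6, 18960.4 and 485 in Sham 1 to Sham 5. EP 3, EP 4 and Sham 4 held the 3 highest values of both genes. Neither passed between EP and sham (adjusted p = 0.355 for Ccl28 and 0.818 for Cxcl17). Ccl27, the skin ligand of Ccr10, had 867 reads over all libraries and was not tested.

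Ligands of neutrophils and interferon-induced ligands did not pass between EP and sham by limma. Cxcl1, Cxcl2, Cxcl3 and Cxcl6 attract neutrophils to infected tissue, and Cxcl9, Cxcl10 and Cxcl11 are induced by interferon and draw Cxcr3-bearing T cells. The unadjusted p was above 0.05 in all 7. The promoters of 5 of them are shown since they hold a match to the NF-kB consensus, the element by which bacterial products and cytokines switch on many chemokine genes. The sequences are the 250 bases before the gene start in RefSeq (build GRCr8), 5′ to 3′ on the strand of the gene, at chr14:17479322-17479571 (minus strand) for Cxcl1, chr14:17467256-17467505 (minus strand) for Cxcl2, chr14:17596418-17596667 (minus strand) for Cxcl6, chr14:15988816-15989065 (plus strand) for Cxcl10 and chr14:15973478-15973727 (plus strand) for Cxcl11. Capitals mark the match to the NF-kB consensus and, in Cxcl10 alone among the 5, also a match to the core of the interferon-stimulated response element, GAAA followed by any 2 bases and GAAA again.
Cxcl1: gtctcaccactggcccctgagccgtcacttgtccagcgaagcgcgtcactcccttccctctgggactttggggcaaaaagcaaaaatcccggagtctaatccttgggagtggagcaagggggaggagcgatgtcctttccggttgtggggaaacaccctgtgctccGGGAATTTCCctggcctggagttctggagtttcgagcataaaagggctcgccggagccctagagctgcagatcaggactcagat
Cxcl2: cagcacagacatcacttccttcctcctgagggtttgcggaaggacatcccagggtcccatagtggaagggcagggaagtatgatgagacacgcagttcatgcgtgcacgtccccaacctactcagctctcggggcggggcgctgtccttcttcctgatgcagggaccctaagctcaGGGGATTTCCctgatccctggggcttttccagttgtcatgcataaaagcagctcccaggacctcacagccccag
Cxcl6: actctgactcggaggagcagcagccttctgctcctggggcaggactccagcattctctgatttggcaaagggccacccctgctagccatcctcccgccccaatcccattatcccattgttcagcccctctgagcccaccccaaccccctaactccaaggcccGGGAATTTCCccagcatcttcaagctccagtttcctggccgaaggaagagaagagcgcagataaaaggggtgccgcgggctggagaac
Cxcl10: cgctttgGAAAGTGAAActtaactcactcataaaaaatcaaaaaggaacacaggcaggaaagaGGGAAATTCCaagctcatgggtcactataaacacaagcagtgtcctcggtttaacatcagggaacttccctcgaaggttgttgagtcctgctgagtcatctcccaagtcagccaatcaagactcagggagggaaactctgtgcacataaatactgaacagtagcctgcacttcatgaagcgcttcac
Cxcl11: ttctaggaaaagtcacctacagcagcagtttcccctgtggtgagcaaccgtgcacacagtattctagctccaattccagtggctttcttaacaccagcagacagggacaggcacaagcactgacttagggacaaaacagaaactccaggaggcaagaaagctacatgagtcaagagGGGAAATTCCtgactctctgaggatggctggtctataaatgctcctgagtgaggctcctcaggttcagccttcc
Both strands were searched. The NF-kB consensus was found in 8 of the 41 members with a promoter entry (19.5%) and in 967 of all 27457 promoters (3.52%). The other members with a match were Ccl20, Ccl9 and Ccr3. The interferon core was found in 2 of 41 members (4.88%), Ccl19 and Cxcl10, and in 3.29% of all promoters. These are matches of letters and not measured binding.

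Of the genes with these promoters, Cxcl2 had 18.3, 1187, 19.4, 21.4 and 14.9 normalized counts in Cur/ZNP gel 1 to 5, 1374, 187, 52.7, 43.6 and 90.6 in ZNP gel and 354, 4.19, 55.2, 85.5 and 22.2 in Cur gel. It had 11.6, 143, 302, 362 and 289.9 in EP 1 to EP 5, against 27.4, 22.2, 28.8, 18.3 and 79.6 in Sham 1 to Sham 5. EP 2 to EP 5 were above every sham rat and EP 1 was below all of them. The log2 fold change was 2.18 (SE 1.24, adjusted p = 0.171), and DESeq2 called it (adjusted p = 0.0463). Cxcl1 ranged from 60.2 to 1285 in EP, against 99.6 to 302 in sham (adjusted p = 0.454), and Cxcl6 from 115 to 3395 in EP, against 365 to 2187 in sham (adjusted p = 0.894). The neutrophil markers summed to 4694 and 5914 in EP 3 and EP 4 and to 1274 to 1951 in the other EP rats, against 1430 to 3837 in sham.

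Cxcl3 differed between Cur/ZNP gel and sham. It had 42.6, 1308, 94.3, 0 and 0 normalized counts in Cur/ZNP gel 1 to 5, 1214, 303, 339.8, 83.6 and 109 in ZNP gel and 319, 20.9, 96.6, 192 and 49.0 in Cur gel. It had 52.4, 239.8, 734, 174 and 30.5 in EP 1 to EP 5, against 257, 269, 404, 187 and 608 in Sham 1 to Sham 5. With Cur/ZNP gel, 4 rats were below every sham rat and 1, Cur/ZNP gel 2, was above all of them. The fitted log2 fold change was -3.84 (SE 1.43, adjusted p = 0.0378). It did not pass without Sham 1, 3 or 5 or without Cur/ZNP gel 4 or 5 (adjusted p up to 0.134), and neither edgeR (log2 fold change -0.22) nor DESeq2 (-0.25) called it. The call also ended with no filter (0.0514) and with a pseudocount of 10 (0.0688).

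Cxcl9 had 325, 1306, 226, 392 and 578 normalized counts in Cur/ZNP gel 1 to 5, 2647, 249.9, 217, 197 and 431 in ZNP gel and 929.9, 333, 384, 1242 and 387 in Cur gel. It had 229, 503, 493, 490.4 and 237 in EP 1 to EP 5, against 462, 164, 24.9, 663 and 564 in Sham 1 to Sham 5 (adjusted p = 0.539). Sham 3 was the lowest of all libraries. Cxcl10 had 61.8, 730.2, 65.7, 93.0 and 87.3 in Cur/ZNP gel 1 to 5, 3738, 373, 77.3, 112 and 173 in ZNP gel and 599.6, 66.0, 130.3, 371 and 95.1 in Cur gel. Rats EP 1 to EP 5 had 47.6, 169, 285, 279.6 and 106, against 249.9, 79.1, 73.4, 346 and 294 in Sham 1 to Sham 5 (adjusted p = 0.864). Cxcl11 ranged from 3.88 to 125 in EP, against 0 to 66.8 in sham (adjusted p = 0.518).

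ZNP gel 1 had the highest value of all 25 libraries in 11 members. These were Cxcl9, Cxcl10, Cxcl11, Cxcl2, Cxcl16, Ccl3, Ccl4, Ccl5, Ccr1, Cxcr6 and Ccrl2. Cxcl10 was at 3738 there, against 730.2 in Cur/ZNP gel 2, the next library. Its neutrophil markers summed to 9821 and its macrophage markers to 48816, the highest of all libraries in both lists. Sham 1 had the highest value in 9 members and Sham 4 in 6. The heat map of all tested members shows these libraries as columns of high values.

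**Figure D3:**
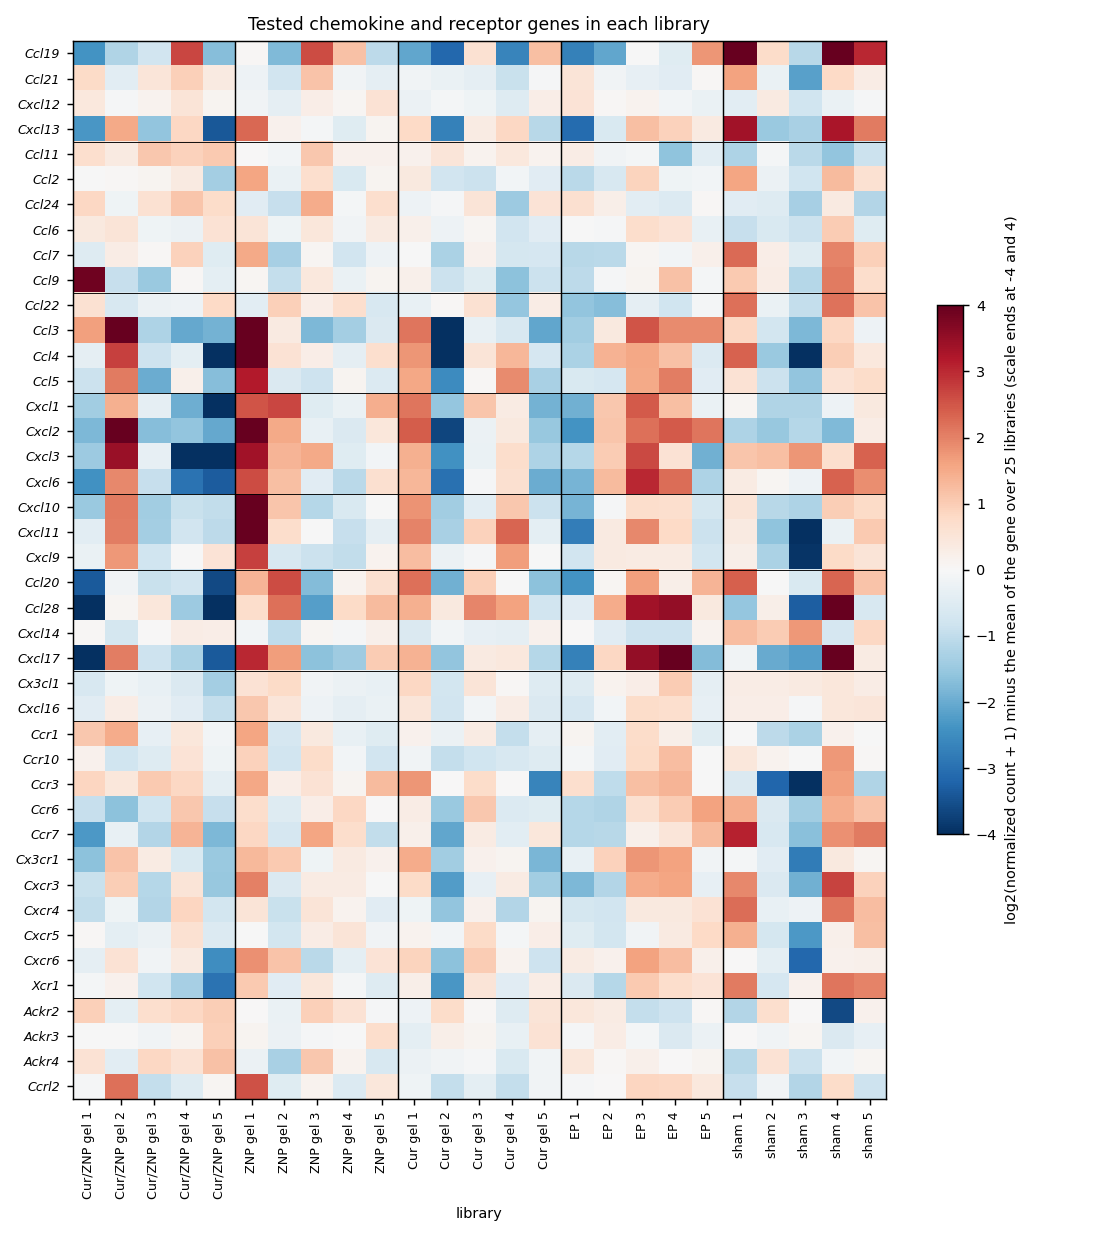
Level of each tested member (rows, by role) in each of 25 libraries (columns, by group), as log2(normalized count + 1) minus the mean of the gene, with the color scale ending at -4 and 4. ZNP gel 1 is high in 11 members, and Sham 1, Sham 4 and Sham 5 are high in Ccl19 and Cxcl13.

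Ccl22, which binds Ccr4 on regulatory and helper T cells, fell in EP. Ccl22 (chr19:10674189-10681145, minus strand) had 82.6, 34.1, 46.2, 46.5 and 95.2 normalized counts in Cur/ZNP gel 1 to 5, 39.8, 105, 65.0, 87.1 and 34.2 in ZNP gel and 44.1, 55.5, 82.8, 17.8 and 67.4 in Cur gel. It had 17.5, 15.8, 42.3, 30.7 and 51.4 in EP 1 to EP 5, against 254, 44.4, 27.5, 246 and 122 in Sham 1 to Sham 5. Sham 1, Sham 4 and Sham 5 were above every other library, and Sham 2 and Sham 3 were within the EP range. The log2 fold change was -1.76 (SE 0.57, adjusted p = 0.0197), and it did not pass without Sham 1, Sham 4, EP 1 or EP 2 (adjusted p up to 0.0699). The dendritic cell markers summed to 5536 to 9606 in EP, against 7697 to 22148 in sham, with the 3 highest sums in the same 3 sham libraries.

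Ccl3, Ccl4 and Ccl5 are inflammatory ligands made by activated macrophages and T cells, and none passed in any comparison by limma. Ccl5 had 41.7, 329, 18.5, 88.3 and 22.8 normalized counts in Cur/ZNP gel 1 to 5, 700.2, 51.0, 42.8, 82.8 and 52.2 in ZNP gel and 227, 12.6, 78.5, 285 and 30.5 in Cur gel. It had 49.5, 47.5, 221, 316 and 55.7 in EP 1 to EP 5, against 114, 41.8, 24.9, 116 and 127 in Sham 1 to Sham 5. EP 3 and EP 4 were above every sham rat, and the other EP rats lay between Sham 2 and Sham 1. Ccl3 ranged from 21.4 to 335 in EP, against 15.7 to 103 in sham, and Ccl4 from 10.7 to 80.3 in EP, against 0 to 142 in sham. Ccl1, Ccl17 and Xcl1 had 86, 330 and 403 reads over all libraries and were not tested.

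The membrane-bound ligands Cx3cl1 and Cxcl16 carry a chemokine domain on a stalk and also hold cells with their receptor in place. Cx3cl1 (chr19:10644244-10653800, minus strand) had 952, 1311, 1209, 979 and 571 normalized counts in Cur/ZNP gel 1 to 5, 2215, 2536, 1336, 1247 and 1210.1 in ZNP gel and 2606, 892, 2104, 1529.9 and 1024 in Cur gel. It had 1038, 1632, 1793, 2988 and 1148 in EP 1 to EP 5, against 1818, 1811, 1889, 2010.3 and 1804 in Sham 1 to Sham 5. Sham rats were closely alike, and every Cur/ZNP gel rat was below every sham rat (log2 fold change -0.95, SE 0.31, adjusted p = 0.0185). The call ended without Cur/ZNP gel 5 (adjusted p = 0.0658). In EP the rats lay on both sides of sham, with a log2 fold change of -0.22 (adjusted p = 0.592).

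Cxcl16 had 2375, 3959, 2738, 2371 and 1673 normalized counts in Cur/ZNP gel 1 to 5, 6911, 4555, 2845, 2538 and 2725 in ZNP gel and 4598, 1914, 3014, 3983 and 2173 in Cur gel. It had 2034, 3035, 5389, 5236 and 2601 in EP 1 to EP 5, against 3898, 3936, 3129, 4451 and 4592 in Sham 1 to Sham 5 (log2 fold change -0.22, SE 0.31, adjusted p = 0.596). EP rats again lay on both sides of the sham range.

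Of the 11 signaling receptors tested, 0 passed between EP and sham by limma (1, Ccr3, at an unadjusted p under 0.05). DESeq2 called 1 (Cxcr4) and edgeR 0. Ccr1, a receptor of Ccl3 and Ccl5, ranged from 154 to 362 in EP, against 89.2 to 244 in sham (adjusted p = 0.402).

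Cx3cr1, the receptor of Cx3cl1 on monocytes and macrophages, had 33.9, 236, 135, 69.7 and 37.7 normalized counts in Cur/ZNP gel 1 to 5, 264, 224, 93.8, 139 and 121 in ZNP gel and 299.8, 39.8, 122, 115 and 29.6 in Cur gel. It had 86.4, 202, 368, 328 and 97.5 in EP 1 to EP 5, against 101, 77.3, 14.4, 140.3 and 112 in Sham 1 to Sham 5 (log2 fold change 1.35, SE 0.68, adjusted p = 0.120). EP 2, EP 3 and EP 4 were above every sham rat. Cxcr6, the receptor of Cxcl16 on tissue-resident T cells, had 60.0, 114, 69.3, 98.6 and 12.9 in Cur/ZNP gel 1 to 5, 277, 169.5, 36.2, 58.4 and 112 in ZNP gel and 144, 24.1, 155, 85.5 and 42.5 in Cur gel. EP 1 to EP 5 stood at 97.1, 86.6, 237, 183 and 88.8, against 77.0, 57.8, 7.87, 87.4 and 89.4 in Sham 1 to Sham 5 (log2 fold change 1.34, SE 0.71, adjusted p = 0.138). EP 2 and EP 5 lay below the highest sham rat, and Sham 3 was the lowest of all libraries.

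Cxcr3, the receptor of the interferon-induced ligands, had 51.3, 191, 43.5, 139 and 32.7 normalized counts in Cur/ZNP gel 1 to 5, 395, 64.0, 122, 122 and 94.9 in ZNP gel and 163, 19.9, 76.8, 122 and 36.0 in Cur gel. It had 27.2, 42.3, 269, 288 and 75.7 in EP 1 to EP 5, against 367, 64.0, 24.9, 630.1 and 183 in Sham 1 to Sham 5 (adjusted p = 0.556). Sham 4 was the highest of all libraries by normalized count. Ccr6, the receptor of Ccl20, had 54.8, 33.1, 60.1, 221 and 54.6 in Cur/ZNP gel 1 to 5, 171, 73.5, 125, 186 and 106 in ZNP gel and 128, 36.6, 223, 71.2 and 74.8 in Cur gel. For EP 1 to EP 5 the values were 46.6, 44.4, 163, 214 and 321, against 289, 70.2, 39.3, 289 and 233 in Sham 1 to Sham 5 (adjusted p = 0.793). Both groups spread over the same range.

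Ccr10, which draws plasma cells and T cells to mucosa and skin, fell with Cur gel against sham. It had 233, 117, 143, 305 and 184 normalized counts in Cur/ZNP gel 1 to 5, 389, 120.2, 344, 193 and 121 in ZNP gel and 187, 107, 119, 132 and 144 in Cur gel. It had 194, 152, 351, 483 and 205 in EP 1 to EP 5, against 283, 228, 205, 685 and 215 in Sham 1 to Sham 5. Every Cur gel rat was below every sham rat (log2 fold change -1.08, SE 0.39, adjusted p = 0.0346), and the call ended without Sham 1 or 4 or without Cur gel 2, 3, 4 or 5 (adjusted p up to 0.113). Xcr1, the receptor of cross-presenting dendritic cells, had 43.5, 51.1, 25.9, 17.7 and 4.96 in Cur/ZNP gel 1 to 5, 95.7, 32.9, 62.5, 42.7 and 31.6 in ZNP gel and 53.3, 8.38, 65.6, 32.9 and 56.3 in Cur gel. EP 1 to EP 5 had 30.1, 20.1, 95.8, 74.7 and 67.0, against 195, 28.4, 51.1, 205 and 183 in Sham 1 to Sham 5. Xcr1 fell with Cur/ZNP gel against sham (log2 fold change -2.14, SE 0.68, adjusted p = 0.0167), with Sham 1, Sham 4 and Sham 5 above every other library and Cur/ZNP gel 1 and 2 above Sham 2. The call held in 9 of 10 fits that left out a library and ended without Cur/ZNP gel 5 (adjusted p = 0.0623). With Cur/ZNP gel and sham alone in the limma fit, the call on Xcr1 also ended (adjusted p = 0.0718). Without Sham 1, Sham 4 and Sham 5 together, its log2 fold change was -0.75 (adjusted p = 0.548). Ccr1l1, Ccr4, Ccr8, Ccr9 and Cxcr1 had 14 reads (Cxcr1) to 472 reads (Ccr8) over all libraries and were not tested.

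Of the atypical receptors, Ackr2 takes up inflammatory CC ligands, Ackr3 takes up Cxcl12, and Ackr4 takes up Ccl19 and Ccl21. Ccrl2, listed with them here, binds chemerin. All 4 had a positive log2 fold change in EP and in Cur/ZNP gel against sham, and none passed. Ackr2 ranged from 271 to 703 normalized counts in Cur/ZNP gel and 185 to 485 in EP, against 28.5 to 572 in sham, and its adjusted p was 0.0502 with Cur/ZNP gel and 0.414 in EP. Ackr3 had 2488, 2499, 2296, 2736 and 4930.2 in Cur/ZNP gel 1 to 5, 2707, 2156, 2458, 2483 and 4098 in ZNP gel and 1946, 3002, 2737, 2078 and 3806 in Cur gel. EP 1 to EP 5 stood at 2456, 3086, 2423, 1686 and 2163, against 2537, 2297, 2681, 1693 and 1999.7 in Sham 1 to Sham 5 (adjusted p = 0.829). Its highest value was in Cur/ZNP gel 5, which also had the highest Ackr2 and Ackr4 of all libraries. Ccrl2 ranged from 153 to 290.3 in EP, against 69.5 to 266 in sham (adjusted p = 0.211).

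Against the same sham rats, each gel group had few members past the test. With Cur/ZNP gel 9 of 42 passed (2 higher, 7 lower), where 39.7% of all genes passed (20.2% higher, 19.5% lower). With ZNP gel 3 passed (2 higher, 1 lower), where 32.1% of all genes passed (16.7% higher, 15.4% lower). With Cur gel 6 passed (1 higher, 5 lower), where 38% of all genes passed (18.9% higher, 19.1% lower). At an unadjusted p under 0.05 there were 17 members with Cur/ZNP gel (48.9% of all genes), 4 with ZNP gel (43.7%) and 7 with Cur gel (47.5%). These shares were below the background in each gel group. Groups did not overlap in 2 members with Cur/ZNP gel (18.7% of all genes), 0 with ZNP gel (13.8%) and 2 with Cur gel (17.7%). The 9 with Cur/ZNP gel were Ccl11 and Ccl24 as higher and Ccl19, Ccl20, Cx3cl1, Cxcl14, Cxcl3, Cxcr4 and Xcr1 as lower. For Ccl19 the log2 fold change was -3.06 with Cur/ZNP gel (adjusted p = 0.04999) and -3.60 with Cur gel (adjusted p = 0.0243), and neither passed without Sham 1 or without Sham 4. The calls also ended without Sham 5 or Cur/ZNP gel 1, 2, 3 or 5 in the first case (adjusted p up to 0.153) and without Cur gel 2 or 4 in the second (up to 0.0837). With Cur/ZNP gel the call on Ccl19 also ended in edgeR (0.0638), with no filter (0.0675), with the filterByExpr filter (0.0537) and with a pseudocount of 0.5 (0.0503). The comparisons share their sham rats, so they are not independent of each other. Without Sham 1, Sham 4 and Sham 5, 8 members passed with Cur/ZNP gel (7 higher, 1 lower; 25.6% of all genes), 6 with ZNP gel (20.3%) and 5 with Cur gel (26.7%). Of the 22 calls in EP and the gel groups against sham, 16 ended in that setting, 16 with the compared groups alone in the fit and 11 without Sham 4, EP 3 and EP 4.

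The gel groups were then set against EP, the rats with periodontitis and no drug named. Whether EP rats received a hydrogel without drug is not stated, so that drug and gel injection cannot be told apart here. No member passed with any gel by limma or edgeR, where 0% of all genes passed with Cur/ZNP gel, 0.00621% (1 gene) with ZNP gel and 0% with Cur gel. At an unadjusted p under 0.05 there were 3 members with Cur/ZNP gel (Ccl11, Ccl28 and Cx3cl1; 12.8% of all genes), 1 with ZNP gel (Ccl11; 2.99%) and 2 with Cur gel (Ccl11 and Ccr10; 1.76%). DESeq2 called 1 member, Ccl11 with Cur/ZNP gel (log2 fold change 1.12, adjusted p = 0.0276). This was 2.38% of the members, against 1.26% of all genes in the same DESeq2 comparison. By limma the log2 fold change of Ccl11 against EP was 1.21 (95% interval 0.60 to 1.82) with Cur/ZNP gel, 0.65 (95% interval 0.04 to 1.26) with ZNP gel and 0.66 (95% interval 0.05 to 1.27) with Cur gel. Every Cur/ZNP gel rat had more Ccl11 than every EP rat, and Ccl11 was the only member without overlap in this comparison (2.1% of all genes). With ZNP gel no member was without overlap (0.559% of all genes). With Cur gel, Ackr4 and Ccrl2 did not overlap with EP (0.336% of all genes). Ackr4 had 354 to 525 normalized counts in Cur gel, against 546 to 749 in EP, and Ccrl2 had 81.7 to 143 in Cur gel, against 153 to 290.3 in EP. The adjusted p of Ccl11 was 0.293 with Cur/ZNP gel and 0.129 to 0.684 over the 10 fits that left out a library.

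**Figure D4:**
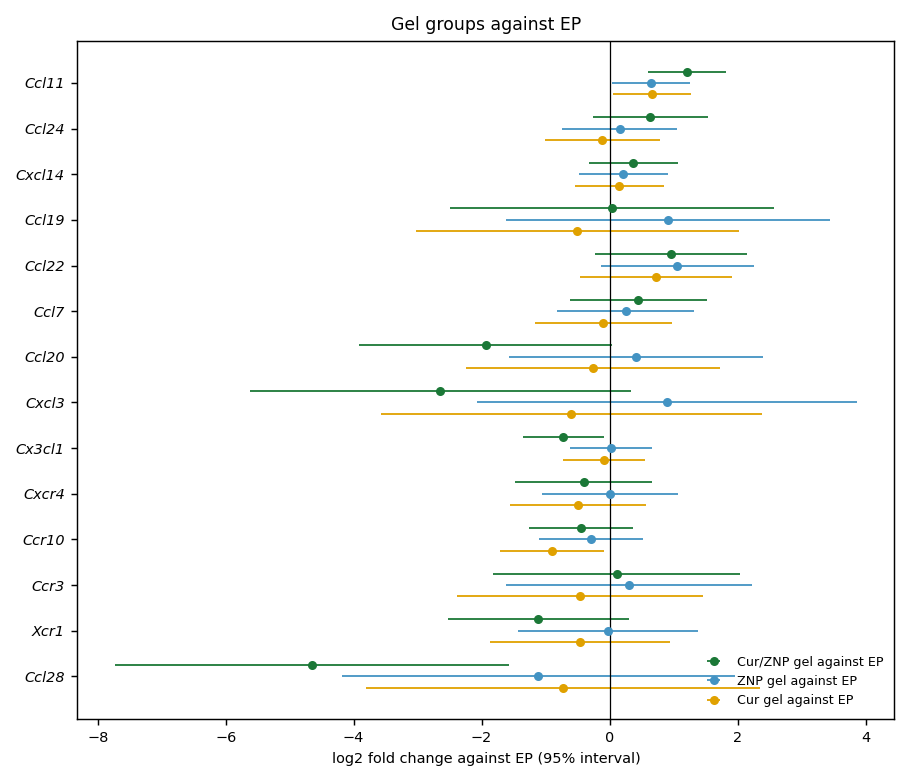
Log2 fold changes of 14 members in the gel groups against EP (x axis) with 95% intervals, colored by gel. Intervals of Ccl11 lie right of 0 with each gel, those of Ccl28 and Cx3cl1 lie left of 0 with Cur/ZNP gel only and that of Ccr10 with Cur gel only, and no adjusted p passed.

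Ccl28 had 0, 312, 404, 107 and 3.97 normalized counts in Cur/ZNP gel 1 to 5, 475, 1361, 62.5, 502 and 713 in ZNP gel and 796, 389, 1129, 902 and 174 in Cur gel. Against EP the log2 fold change was -4.66 (95% interval -7.74 to -1.58) with Cur/ZNP gel, and it was -1.11 with ZNP gel and -0.73 with Cur gel. Cur/ZNP gel 1 and 5, with 0 and 3.97, were the lowest libraries. Salivary gland markers summed to 23159, 23176 and 2224 in Cur/ZNP gel 1, 4 and 5, where Ccl28 was lowest within the group, and to 2976620 and 4175080 in Cur/ZNP gel 2 and 3. In EP they summed to 522039 to 7200530. Their part in the result was not tested. For Cx3cl1 the log2 fold change against EP was -0.72 (95% interval -1.36 to -0.09) with Cur/ZNP gel, 0.02 (95% interval -0.61 to 0.66) with ZNP gel and -0.09 (95% interval -0.73 to 0.55) with Cur gel.

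The 4 members lower in EP than in sham passed against EP with no gel. For Cxcl14 the log2 fold change against EP was 0.37 (95% interval -0.32 to 1.06) with Cur/ZNP gel, 0.22 (95% interval -0.48 to 0.91) with ZNP gel and 0.15 (95% interval -0.54 to 0.84) with Cur gel. For Ccl22 it was 0.96 (95% interval -0.23 to 2.15) with Cur/ZNP gel, 1.06 (95% interval -0.13 to 2.25) with ZNP gel and 0.72 (95% interval -0.47 to 1.91) with Cur gel. For Ccl7 it was 0.45 (95% interval -0.62 to 1.52), 0.25 (95% interval -0.82 to 1.32) and -0.10 (95% interval -1.17 to 0.97) in the same order of gels. The intervals hold 0 but also changes of more than the size of 1 on the log2 scale in Ccl22, Ccl7 and, with Cur/ZNP gel, Cxcl14, so that equal levels were not shown. For Ccl19 the intervals were wider still, as 0.03 (95% interval -2.49 to 2.56) with Cur/ZNP gel shows.

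Between the gels no member passed by limma, edgeR or DESeq2, and 0% of all genes passed by limma. Between Cur/ZNP gel and ZNP gel, 6 members had an unadjusted p under 0.05 (5.08% of all genes). Ackr4 had a positive log2 fold change, and Ccl20, Ccl28, Cx3cl1, Cxcl1 and Cxcl3 had negative log2 fold changes of -2.36, -3.55, -0.75, -2.45 and -3.54, with an adjusted p of 0.899 each. Between Cur/ZNP gel and Cur gel there were 2 (Ackr4 and Ccl28; 11.1% of all genes), and between ZNP gel and Cur gel 0 (1.14%). Groups overlapped in all members in these 3 comparisons, against 0.969%, 2.55% and 0.447% of all genes without overlap in the same order. Ackr4, which removes Ccl19 and Ccl21, had 819, 404, 969, 815 and 1224 normalized counts in Cur/ZNP gel 1 to 5, 462, 221, 1151, 599 and 348 in ZNP gel and 463, 492, 525, 354 and 493 in Cur gel. Cur/ZNP gel 2 lay below most Cur gel rats and the other 4 lay above all of them. Ackr4 had a log2 fold change of 0.79 (95% interval 0.05 to 1.52) against Cur gel and 0.74 (95% interval 0.00 to 1.48) against ZNP gel. ZNP gel against Cur gel had 38 positive and 4 negative log2 fold changes among the 42 members (median 0.49, against 0.02 over all genes). ZNP gel 1 is the library with the highest value in 11 of the members, and the direction count was not tested.

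Downstream of the receptors, the signaling list held G proteins, kinases, arrestins and Rac activators, and 35 of its 36 genes were tested. In EP against sham 4 rose and 3 fell, with a median log2 fold change of 0.0042 over the list and 0.01 over all genes. The 7 were 20% of the list, against 37.6% of all genes, so that the list was below the background. The 4 that rose were Arrb1, an arrestin that shuts off and internalizes receptors (1.22, adjusted p = 0.00101), Grk3, a kinase that marks active receptors (2.64, adjusted p = 0.00673), Elmo1, an activator of Rac (0.96, adjusted p = 0.00878), and the transcription factor Stat3 (0.37, adjusted p = 0.0113). The 3 that fell, named after their values were seen, were the G protein subunit Gng2 (-1.62), the receptor kinase Grk6 (-0.62) and the small GTPase Rac1 (-0.33). Against sham, 5 rose and 3 fell with Cur/ZNP gel, 3 and 3 with ZNP gel and 3 and 4 with Cur gel, which were 22.9%, 17.1% and 20% of the list and also below the share of all genes (39.7%, 32.1% and 38%). Against EP 0 passed with any gel by limma, and 2, 0 and 0 had an unadjusted p under 0.05 with Cur/ZNP gel, ZNP gel and Cur gel. Of 8 tested genes for chemoattractants outside the symbol rule, 0 rose and 1 fell in EP, the cytokine Mif (-0.81, adjusted p = 0.00554). Pf4, the platelet chemokine, averaged 3840 ± 2726 in EP and 882 ± 922 in sham (SD, n = 5 rats each; log2 fold change 2.19, adjusted p = 0.0541).

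Ligands and their receptors were last compared across rats, on deviations from the group mean so that group differences play no part. Of 19 listed pairs, 12 had both genes tested, and 8 passed a permutation test within groups after adjustment over the 12. All 25 libraries entered, and the tissue makeup that moves with both genes of a pair was not separated. How often other gene pairs pass was not tested, so the count of 8 has no background to be set against. Ccr7, Cxcr3 and Cxcl12 recur among the pairs, which are therefore not independent of each other. The closest pair was Ccl19 with Ccr7 (r = 0.914, rho = 0.909, permutation p = 1e-05, adjusted p = 6e-05), where r was 0.891 without Sham 1 and Sham 4, the rats farthest from the median of Ccl19. Cxcl16 with Cxcr6 had r = 0.762 and rho = 0.83 (adjusted p = 6e-05), and r = 0.695 without ZNP gel 1 and Cur/ZNP gel 5. A permutation p of 1e-05 is the smallest that 100000 permutations can give. In both pairs r was positive within each of the 5 groups.

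Cxcr3 followed both interferon-induced ligands that were paired with it. With Cxcl9 it had r = 0.758 and rho = 0.679 (permutation p = 0.00017, adjusted p = 0.000408), and with Cxcl10 r = 0.736 and rho = 0.758 (permutation p = 3e-05, adjusted p = 9e-05). Without the 2 rats farthest from the median r was 0.655 and 0.736 in these pairs. Cx3cl1 with Cx3cr1 had r = 0.734 and rho = 0.767 (permutation p = 2e-05, adjusted p = 8e-05) and r = 0.726 without the 2 farthest rats, and within sham, where Cx3cl1 hardly varied, r was 0.025. The weaker pairs that passed were Ccl21 with Ccr7 (r = 0.603, rho = 0.487, permutation p = 0.0125, adjusted p = 0.0223), Cxcl13 with Cxcr5 (r = 0.549, rho = 0.472, permutation p = 0.0249, adjusted p = 0.0373) and Ccl20 with Ccr6 (r = 0.52, rho = 0.481, permutation p = 0.013, adjusted p = 0.0223). For Ccl21 with Ccr7 r was 0.333 without Sham 3 and Sham 1, so that this relation rests on those rats. For the other weaker pairs it was 0.535 and 0.529. Each of the 3 weaker pairs had a negative r within 1 group, -0.44 within EP for Ccl21 with Ccr7, -0.19 within ZNP gel for Cxcl13 with Cxcr5 and -0.42 within ZNP gel for Ccl20 with Ccr6. By rho, 5 of the 12 pairs passed, with Ccl20, Ccl21 and Cxcl13 at an adjusted p of 0.0511, 0.0646 and 0.0726.

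The other 4 pairs did not pass. Cxcl12, the most read member, had r = -0.021 with Cxcr4 (rho = -0.00923, permutation p = 0.934, adjusted p = 0.934) and r = 0.294 with Ackr3 (rho = 0.305, permutation p = 0.163, adjusted p = 0.217). Ccl11 had r = -0.302 with Ccr3 (rho = -0.371, permutation p = 0.217, adjusted p = 0.26), and Ccl28 had r = 0.122 with Ccr10 (rho = 0.0485, permutation p = 0.592, adjusted p = 0.646). For Ccl11 r was positive within 1 of the 5 groups, and for the other 3 pairs within 3 of them. In the scatter plots of 6 pairs, the points of Ccl19 with Ccr7 form a narrow band through all groups, and those of Cxcl12 with Cxcr4 form none.

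**Figure D5:**
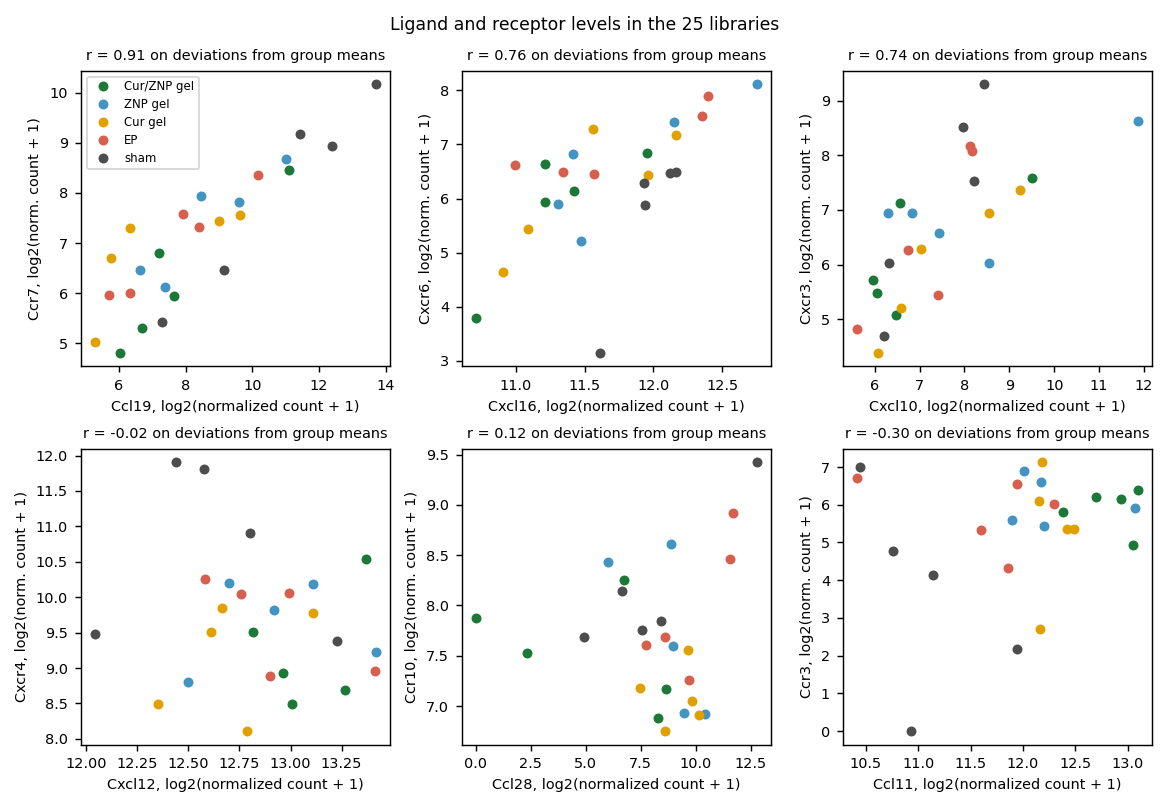
Ligand (x axis) and receptor (y axis) of 6 pairs in the 25 libraries, both as log2(normalized count + 1), colored by group, with Pearson r on deviations from the group means above each panel. Ccl19 with Ccr7 (0.91) and Cxcl16 with Cxcr6 (0.76) have the highest r, and Cxcl12 with Cxcr4 (-0.02) and Ccl28 with Ccr10 (0.12) have r near 0.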

How the data were processed

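RNA was extracted with TRIzol and sequenced from ribosome-depleted, stranded total RNA libraries of 25 rats. The authors deposited a signal table, in which the reads of each Ensembl transcript (Rnor_6.0) were divided by a size factor of the library, per the submitters' processing notes with DESeq2. The aligner and the counter are not given in the sources used here. The table held 41078 transcripts, of which 396 without a symbol were kept as genes under their own identifier, and 840 blank lines. Of the deposited values, 100% were whole multiples of a library constant within 0.01, and the reads recovered in this way gave CPM values and the count tests of the alternatives.

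Values of all transcripts of a gene were added up. Genes that reached 2 CPM in any library entered limma 3.58.1 (R 4.3.3, robust fit with a variance trend) on log2(value + 1), over all 5 groups, two-sided and with Benjamini-Hochberg adjustment at 0.05. Fold changes are on this scale, where the added 1 shrinks those of low genes. With values near 0 in some rats they can still exceed those of the count tests. Against sham, Ccr3 with ZNP gel had 2.48, and 1.13 in edgeR. Cxcl3 with Cur/ZNP gel had -3.84, and -0.22 in edgeR. Pairs of ligand and receptor were tested by 100000 permutations within groups, adjusted over the 12 pairs. The alternatives were edgeR 4.0.16, DESeq2 1.42.0, 2 other filters, pseudocounts of 0.5 and 10, the compared groups alone, a replicate block and left-out libraries. Intervals cover 95%, and the limit for a count of 0 is 3 reads and covers counting error only.

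Per-rat values are given for members that passed, for the 10 with the most reads and for pairs that passed. Members and lists were chosen with earlier results of these data known. In the promoters of RefSeq, 41 of 53 members matched by symbol. Some receptors of the family are not reported here.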

Additional observations from a re-analysis of the deposited data

Results flagged for a closer look

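In 18 of 210 sets of 5 rats (42 members in 5 groups), the highest or lowest rat lay farther from the others than the 95% limit of Dixon's test for their number, on the scale of log2(normalized count + 1). Chance alone gives this in about 1 in 20 sets. The number depends on the scale, since 41 sets passed on the normalized counts themselves, 12 of them among the 18, a count added after seeing the data. The values given are normalized counts of the 18.

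ZNP gel 1 lay above the other ZNP gel rats in Cxcl11 (865.7), Ccl4 (648.3), Ccl5 (700.2) and Cxcl13 (16570). In the same group ZNP gel 3 was high in Ccl11 (8620) and ZNP gel 2 low in Cxcl14 (1957). Cur/ZNP gel 2 was high in the neutrophil ligand Cxcl2 (1187) and the interferon-induced ligands Cxcl10 (730.2) and Cxcl11 (135.2), and low in Ackr2 (271.5). These rats also had the highest sums of neutrophil markers (9821 for ZNP gel 1, 7490 for Cur/ZNP gel 2), and their part in these values was not tested.

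Cur/ZNP gel 5 was high in Ackr3 (4930) and low in Ccl2 (88.29), and Cur/ZNP gel 1 was high in Ccl9 (500.1). EP 1 was low in Cxcl2 (11.65). Among sham rats, Sham 4 was high in Ccl6 (2411) and Ccr10 (685), and Sham 3 was low in Cx3cr1 (14.42) and Cxcr6 (7.867). Sham 4 is 1 of the 3 libraries with nasal gland proteins. Its size factor of 0.492, the lowest of all libraries, makes its normalized counts high relative to its reads.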

How the results depend on the processing

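The counts of members past the threshold depended on which sham rats entered. The percentages in parentheses are shares of all genes past the threshold in the same fit. Between EP and sham 4 passed (37.6%), and the count was 2 with no filter on low values (24.5%), 0 with EP and sham alone in the fit (21.0%; the cause of each was not tested), 1 without Sham 4, EP 3 and EP 4 (28.0%), 7 without Sham 1, Sham 4 and Sham 5 (27.8%), and 1 to 6 when each library was left out in turn. With Cur/ZNP gel against sham (9; 39.7%) it was 14 with DESeq2 (44.9%), 5 with the compared groups alone (22.8%) and 1 to 13 with a library left out. With ZNP gel (3; 32.1%) it was 8 with DESeq2 (38.9%), 1 with the compared groups alone (12.2%), 6 without Sham 1, Sham 4 and Sham 5 (20.3%) and 1 to 4 with a library left out. With Cur gel (6; 38%) it was 11 with DESeq2 (45.7%), 1 with the compared groups alone (20.9%), 3 without Sham 4, EP 3 and EP 4 (36.5%) and 2 to 7 with a library left out. By edgeR the counts were 4 (37.1%), 7 (39.7%), 2 (32.7%) and 6 (41.0%) in the same order. With a library left out, 4801 to 6783, 5154 to 7240, 3736 to 6193 and 4734 to 6968 of all 16092 genes passed in that order. In all 40 fits of 10 alternatives to these 4 comparisons, single left-out libraries aside, the share of members was below that of all genes. Against EP and between gels the count was 0 by limma and edgeR under each alternative run, leaving out each library included (0 to 0). By DESeq2 it was 1 with Cur/ZNP gel against EP (Ccl11, 1.12), where 1.26% of all genes passed. Of the pairs 8 passed, and 5 with Spearman in place of Pearson correlation and 6 to 8 under the other alternatives.

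Directions turned in members that did not pass between EP and sham. Ccl21 had a log2 fold change of 0.27 without Sham 4, EP 3 and EP 4, 0.27 without Sham 1 and 0.06 without Sham 4. Cxcl10 had 0.030 without Sham 4 and 0.18 without EP 1. Over all left-out libraries Ccl21 ranged from -0.68 to 0.27 and Cxcl10 from -0.52 to 0.18. Without Sham 1, Sham 4 and Sham 5, a setting chosen after seeing the data, the values were 0.94 for Cxcl10, 1.14 for Ccl21, 1.15 for Cxcl13, 1.10 for Ccr7 and 0.21 for Cxcr4. In each of these genes the removed rats held the highest sham values, so that the turns cannot be told apart from the choice of rats. No alternative moved the median of all genes by over 0.1.

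Rat numbers in the labels recur in each group. With the rat number as a replicate block the counts of calls were 4 (EP), 9 (Cur/ZNP gel), 3 (ZNP gel) and 6 (Cur gel) against sham and 0 elsewhere, the same as without it. Of all genes, 37.1%, 39.2%, 31.8% and 37.4% passed against sham with the block, in the same order. Libraries with the same number had a median correlation of -0.0073 over 50 pairs (-0.392 to 0.506), and 5 of 25 libraries correlated best with their own number. No pairing by number was thus seen. Correlations over all genes cannot tell whether rats shared cages or days, which the labels do not state.

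Several members had wide intervals, and differences within those intervals were not detectable with 5 rats a group.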

Other observations

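Lists of genes of the tissue that chemokines act on were compared between EP and sham, where 37.6% of all genes passed. The share was 66.7% in lymphatic endothelium. It was below that of all genes in macrophages and monocytes (16.7%), mast cells (25%), lymphoid tissue organizers (12.5%) and high endothelial venules (25%). Of 6 lymphatic endothelium markers, 3 rose, among them Lyve1 (log2 fold change 1.55, adjusted p = 0.00117) and Prox1 (1.99, adjusted p = 0.00398), and 1 fell, Pdpn (-0.75, adjusted p = 0.00876), which keratinocytes also express. Of 12 macrophage and monocyte markers 2 rose, the scavenger receptor Cd163 (1.72, adjusted p = 0.00177) and the mannose receptor Mrc1 (1.03, adjusted p = 0.0127), and 0 fell. Of 8 mast cell markers 2 rose, the growth factor receptor Kit (1.67, adjusted p = 0.0118) and the protease Cpa3 (1.40, adjusted p = 0.0127), and 0 fell. Of 8 tested lymphoid tissue organizers 0 rose and 1 fell, the lymphotoxin receptor Ltbr (-0.43, adjusted p = 0.0488). Of 4 tested high endothelial venule markers 0 rose and 1 fell, the fucosyltransferase Fut7 (-2.13, adjusted p = 0.0473).

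Among 15 T and NK cell markers 1 rose, Cd4 (1.09, adjusted p = 0.00516), and 2 fell, Cd247 (-1.90, adjusted p = 0.0457) and Klrd1 (-2.24, adjusted p = 0.0460). Of the other lists, rising and falling members numbered 1 and 3 of 10 in dendritic cells, 2 and 0 of 9 in neutrophils, 1 and 1 of 7 in plasma cells, 0 and 2 of 5 in basal keratinocytes, 2 and 0 of 8 in differentiated keratinocytes, 1 and 0 of 5 in fibroblasts and 1 and 0 of 7 in blood endothelium. Skeletal muscle markers rose in 6 of 7 and nerve markers fell in 7 of 8. The nerve markers summed to 64993, 146336 and 51680 in Sham 1, Sham 3 and Sham 4, but to 1056 and 649 in Sham 2 and Sham 5. They summed to 218 to 426 in EP and to 44254 in Cur/ZNP gel 2. Whether the tissue makeup of those libraries had a part in these calls was not tested. In salivary and nasal gland lists 0 of 6 and 0 of 4 passed by limma (1 and 0 at an unadjusted p under 0.05). Among all genes 37.6% passed. Above this share were dendritic cells and basal keratinocytes (40% each), skeletal muscle (85.7%) and nerve (87.5%), and the other lists named with them were below it.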
